A study of Mus musculus with 12 samples.

Results

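The change on IIAEK that wild-type and IAP knockout mice have in common was described over the jejunum profiles of the whole series, all 12 arrays of 12. IIAEK is a pentapeptide named by the letters of its residues, and IAP is intestinal alkaline phosphatase, which the knockout lacks through deletion of Akp3. The 4 groups were male mice of 7 weeks: knockout on IIAEK, knockout on vehicle, wild type on IIAEK and wild type on vehicle, with 3 arrays each. By mouth, once daily for 14 days, both vehicle groups received carboxymethylcellulose sodium salt at 5 g/L, and both IIAEK groups received 600 mg/kg of body weight of the peptide in that same carrier. One label field of the IIAEK samples states weeks where the titles and protocol state days, and days are used here. All mice fasted for 8 h before the jejunum was taken. The labels name no tissue limit or promoter for the Akp3-/- allele, and the strain is not given in the sources used here. The shared change of a gene is the mean of 2 differences, IIAEK minus vehicle in the knockout and IIAEK minus vehicle in wild type, so that 6 IIAEK arrays stand against 6 vehicle arrays.

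IIAEK is known from feeding studies in rodents as a peptide that lowers serum cholesterol. The jejunum takes up dietary and biliary sterol through Npc1l1, returns part of it to the lumen through Abcg5 and Abcg8, and makes its own sterol under the transcription factor SREBP2, which is held back when cells are rich in cholesterol. Intestinal alkaline phosphatase is an enzyme of the enterocyte brush border that removes phosphate from lipids, nucleotides and bacterial endotoxin.

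All levels are log2 signal minus that of the array's 75th percentile, so a level of 0 is that percentile and a difference of 1 is 1 log2 unit. That percentile lay at a signal of 410 to 578, and the spots called well above background made up 59.99% to 67.1% of an array. The enterocyte marker Fabp2 lay between 9.03 and 9.56 on every array. Akp3 was well above background on 0 of 6 knockout arrays and on 5 of 6 wild-type arrays, 3 on IIAEK and 2 on vehicle. Genes of the exocrine pancreas set 2 arrays apart: the mean of 19 such genes, each centred on its mean over arrays, stood at 7.61 in wild-type IIAEK replicate 3 and 3.42 in knockout vehicle replicate 3, against -2.31 to 0.76 on the other arrays. Genes of B and plasma cells were low in all 3 knockout IIAEK arrays, with a centred mean of -1.52 to -0.81, against 0.91 to 1.39 in the knockout vehicle arrays. Some wild-type arrays were as low: the mean was -1.17, -1.25 and 1.13 on vehicle and -0.84, 1.405 and 0.86 on IIAEK. The log2 of the list's summed linear level overlapped, from 7.52 to 8.455 in knockout IIAEK and 7.604 to 8.309 in knockout vehicle. In bulk tissue, fewer cells of a type and less RNA per cell cannot be told apart.

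No gene passed the threshold for a shared change. Of 27560 genes tested with limma, 0 were higher and 0 lower on IIAEK at an adjusted p under 0.05, and the smallest adjusted p was 0.962. At an unadjusted p under 0.05 there were 964 genes (3.50%), 473 higher (1.72%) and 491 lower (1.78%). Asking each genotype to show the change on its own arrays, with the larger of the 2 p-values adjusted over all genes, gave 0 genes as well. The test of a difference between the genotypes gave 0 genes at an adjusted p under 0.05, with a smallest adjusted p of 0.166 and 4194 genes (15.2%) at an unadjusted p under 0.05. In 1 genotype alone, an unadjusted p under 0.05 was reached by 1277 genes (4.63%) in the knockout and 3534 (12.8%) in wild type.

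Among genes above the detection filter, the 2 genotypes lay on opposite sides of 0 more often than not; with no filter on dim probes the same-sign share was 50.58% and r was -0.141. The shared change was above 0 for 48.5% of genes and below 0 for 51.5%. The change was on the same side of 0 in both for 10195 genes (37.0%), above 0 in both for 4756 (17.3%) and below 0 in both for 5439 (19.7%). Across the 27560 genes the knockout change and the wild-type change, which share no array, correlated with a Pearson r of -0.29 and a Spearman rho of -0.31; genes are not independent replicates. An unadjusted p under 0.05 in each genotype was reached by 21 genes with the same sign (0.0762%), 6 higher (0.0218%) and 15 lower (0.0544%), and by 199 with opposite signs (0.722%). IIAEK and vehicle arrays did not overlap within either genotype for 18 genes higher in both (0.0653%) and 24 lower in both (0.0871%), against 488 with opposite directions (1.77%). The 6 IIAEK arrays lay entirely above the 6 vehicle arrays for 3 genes (0.0109%) and entirely below them for 6 (0.0218%). The only one of the 3 with a symbol was Ppm1l, a protein phosphatase, at 0.30 (knockout 0.17, wild type 0.42), named after its values were seen. Of the 6, AA792892 (-1.13) and 6330407A03Rik (-0.25), named in the same way, have a symbol.

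**Figure D1:**
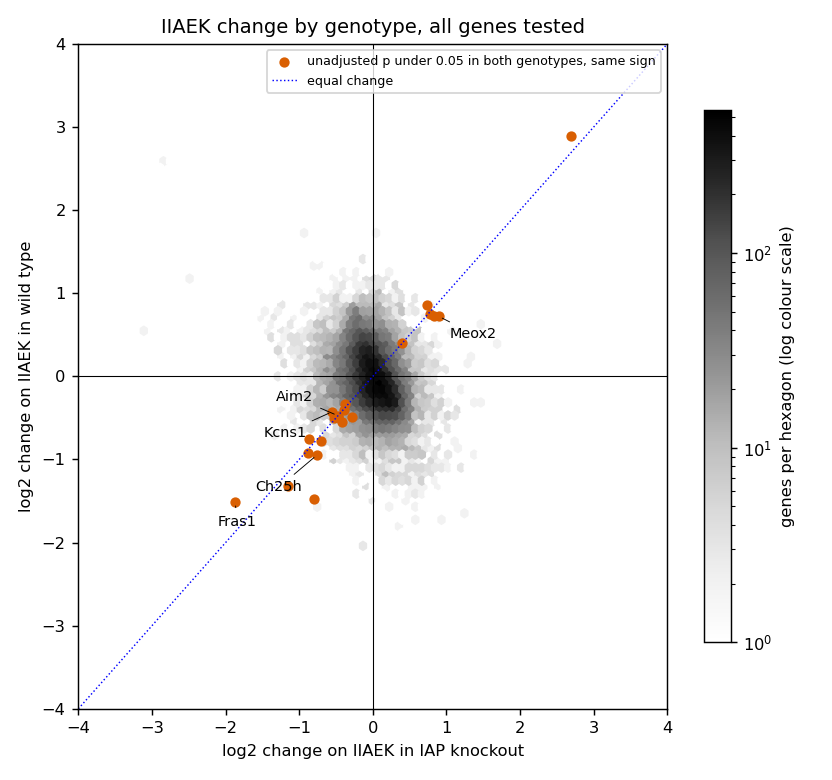
Log2 change on IIAEK in the IAP knockout (horizontal axis) against wild type (vertical axis) for the 27560 genes tested, as hexagons shaded by the number of genes; 5 genes beyond ±4 are drawn at the edge. The cloud tilts downwards to the right (r = -0.29), and the 21 orange genes, which were chosen for having the same sign, lie near the dotted line of equal change.

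The arrays lay on 2 slides, each read in a scan of its own. Slide 1 held 2 arrays of each knockout group and 1 of each wild-type group, and slide 2 held 1 and 2, so treatment was balanced on each slide. The shared change estimated within slide 1 correlated with that within slide 2 at r = -0.06 across genes, with 49.3% of genes on the same side of 0. Within a genotype the 2 slides correlated at 0.23 in the knockout and 0.08 in wild type. Between genotypes the 4 pairings ranged from -0.22 to -0.11. The 4 differences, 1 for each genotype on each slide, were all above 0 for 1162 genes (4.22%) and all below 0 for 1402 (5.09%).

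Genes with the smallest p for a higher shared level include regulators of development and of transport, and none passed the test. Meox2, a homeobox transcription factor of muscle and vessel precursors, read -4.76, -4.46 and -4.07 in knockout IIAEK, against -4.87, -5.97 and -5.15 in knockout vehicle. In wild type it read -4.85, -5.01 and -5.13 on IIAEK, against -5.78, -5.64 and -5.73 on vehicle. The arrays did not overlap within either genotype, and the shared change was 0.81 ± 0.18 (limma SE; knockout 0.90, wild type 0.72; adjusted p = 0.962). Meox2 was below background on all 3 wild-type vehicle arrays, which bounds its wild-type fold at 1.1 or more, and on 2 of 3 in the knockout. It therefore passed the detection filter only through an IIAEK group, the side on which it is higher.

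Ociad1, which encodes a protein of endosomes and mitochondria, was well above the 75th percentile. It read 2.91, 2.29 and 2.49 in knockout IIAEK and 2.11, 1.75 and 1.84 in knockout vehicle. It read 2.45, 2.74 and 2.67 in wild-type IIAEK and 2.14, 2.46 and 2.30 in wild-type vehicle. The knockout groups stood apart, the lowest wild-type IIAEK array lay just under the highest vehicle array, and the shared change was 0.49 ± 0.13, with 0.34 by the gene's other probe. Rasl11b, a small GTPase of the Ras superfamily, read -0.93, -1.41 and -1.22 in knockout IIAEK against -1.36, -1.42 and -2.17 in knockout vehicle. In wild type it read -1.26, -0.88 and -0.87 on IIAEK against -1.75, -2.29 and -1.89 on vehicle. The groups overlapped in the knockout and not in wild type, and the shared change was 0.72 ± 0.17.

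The other genes named for a higher level were smaller in change or dimmer. Ndn, an imprinted growth suppressor of neurons, had a shared change of 0.60, and Slc6a9, a glycine transporter, 0.58, of which the knockout gave 0.12. C7, a complement component, changed by 0.30 in the knockout and 0.27 in wild type, Colec11, a lectin that starts the complement cascade, by 0.39 and 0.41, and Ston2, an adaptor of endocytosis, by 0.40 and 0.41; these 3 entered by the part of the rule that asks for both genotypes. Cacnb2, a calcium channel subunit, Ctxn1, a membrane protein of neurons, and Khdrbs3, an RNA-binding protein, had shared changes of 0.68, 0.43 and 0.43. Rab26, a small GTPase of secretory vesicles, and Lrrtm1, a synaptic adhesion protein, were below background on all 6 vehicle arrays. Both therefore passed the detection filter only through an IIAEK group, the side on which they are higher, so their detection there does not support a rise. With both genotypes pooled, this bounds their higher level on IIAEK at least 1.36-fold and at least 1.15-fold. In wild type alone the bounds were 1.73 and 1.36. In the knockout alone Rab26 was bounded at 1.07 or more, and Lrrtm1 did not exceed the detection limit, so it had no bound. Gria3, a glutamate receptor subunit, was below background on all 3 wild-type vehicle arrays, which bounds its wild-type level on IIAEK at least 1.4-fold higher, and another of its probes had a shared change of -0.16. All 4 genotype and slide differences were above 0 for 13 of these 14 genes, Gria3 being the exception, with the values used to choose them.

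Genes with the smallest p for a lower shared level included an inflammasome sensor and an oxysterol enzyme, and none passed the test. Aim2, the sensor of cytosolic DNA that assembles an inflammasome, read -1.83, -1.78 and -1.89 in knockout IIAEK, against -1.54, -1.35 and -1.18 in knockout vehicle. It read -2.11, -2.01 and -2.13 in wild-type IIAEK, against -1.86, -1.45 and -1.53 in wild-type vehicle. IIAEK arrays lay below vehicle arrays without overlap in each genotype, and the change was nearly the same in both, -0.48 in the knockout and -0.47 in wild type, for a shared change of -0.47 ± 0.10 (adjusted p = 0.962). A dimmer probe of Aim2 gave -0.02 in the knockout and -0.27 in wild type.

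Ch25h makes 25-hydroxycholesterol, an oxysterol known to restrain SREBP2 and to guide B cells as a precursor of other oxysterols. It read -1.67, -1.08 and -1.84 in knockout IIAEK against -1.02, -1.16 and -0.13 in knockout vehicle. It read -1.11, -1.43 and -0.93 in wild-type IIAEK against -0.08, -0.06 and -0.49 in wild-type vehicle. The wild-type groups stood apart and the knockout groups overlapped, and the shared change was -0.85 ± 0.20.

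Kcns1, a subunit that modulates potassium channels, read -4.09, -4.51 and -4.73 in knockout IIAEK against -3.92, -4.0 and -3.75 in knockout vehicle. It read -4.57, -4.45 and -4.28 in wild-type IIAEK against -4.10, -3.97 and -3.94 in wild-type vehicle. Neither genotype showed an overlap, and over all 12 arrays the highest IIAEK array (-4.09) lay just above the lowest vehicle array (-4.10). Its shared change was -0.49 ± 0.12. Rrm2b, the ribonucleotide reductase subunit induced by p53, and Zfp607b, a zinc finger gene, likewise did not overlap in either genotype, with shared changes of -0.47 and -0.40. Fras1, a protein of basement membranes, had the lowest shared change of the 12 genes named, -1.69, and its wild-type difference on slide 1 was 0.85. Pramel34 and Pramel47, of a family of similar copies that a probe may read together, had -1.47 and -1.29, mostly from wild type on slide 2 (-3.03 and -2.77). Atp8a1, a phospholipid flippase, had -0.68 by its brightest probe and -0.19 to -0.43 by 3 others; Pdilt, a chaperone known from testis, had -0.89, and Slc38a11, a putative amino acid transporter, had -0.57 with -0.11 from the knockout. All 4 genotype and slide differences were below 0 for 9 of the 12, the exceptions being Fras1, Slc38a11 and Pdilt, with the values used to choose them.

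**Figure D2:**
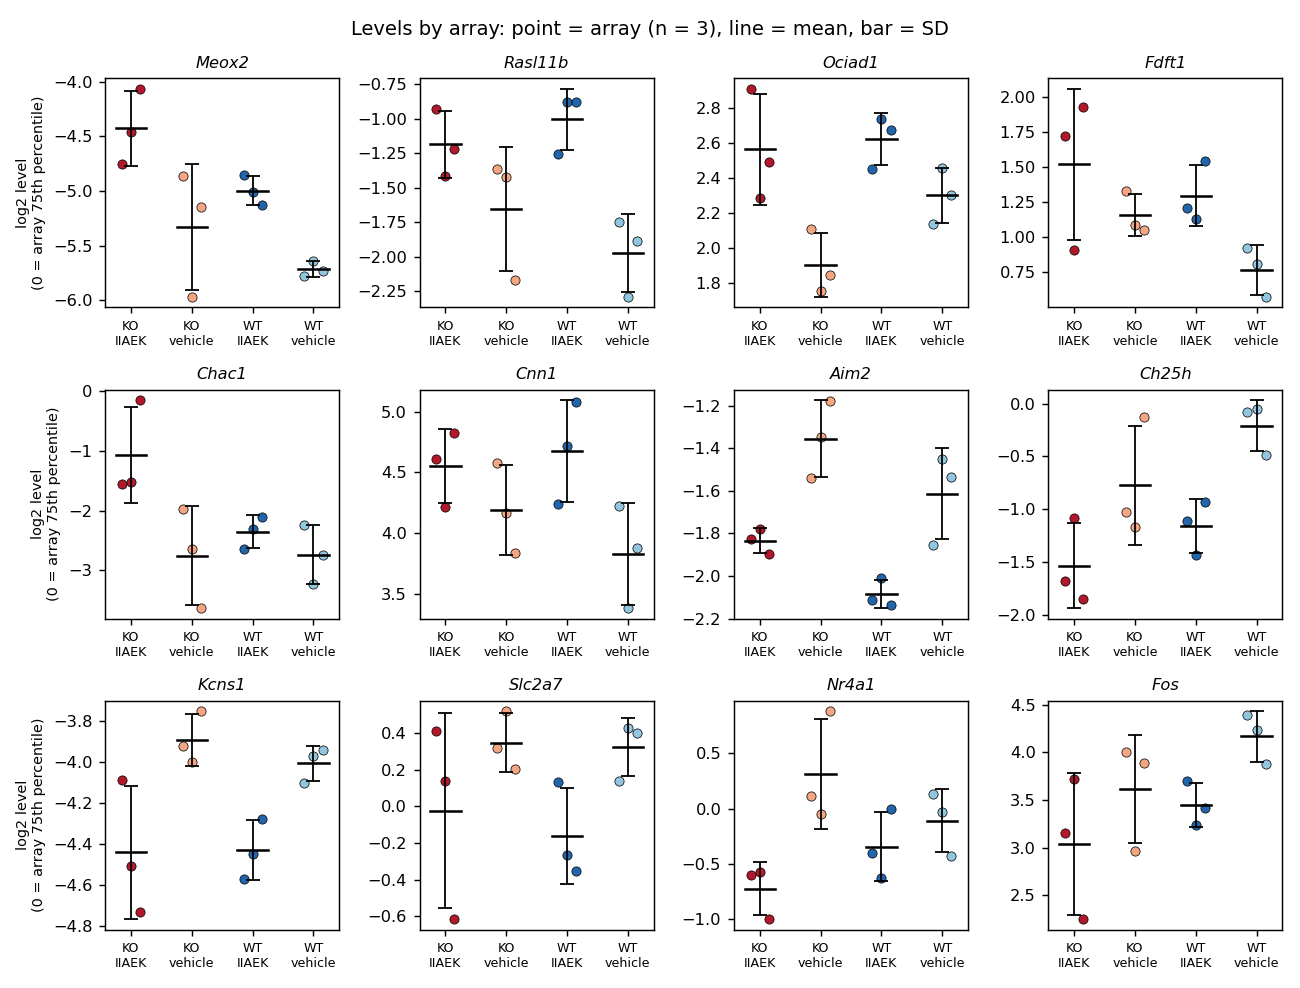
Log2 level relative to the array's 75th percentile on each array for 12 genes, in knockout IIAEK, knockout vehicle, wild-type IIAEK and wild-type vehicle; points are arrays (n = 3 per group), lines are means and bars are SD, and each panel has its own scale. Aim2, Kcns1 and Meox2 separate by treatment within each genotype, and Fdft1, Cnn1 and Fos overlap in the knockout.

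Genes of cholesterol synthesis and of the SREBP2 programme leaned higher on IIAEK, without a call. Of 25 listed members 24 were tested, and 20 lay above 0 and 4 below, against 57.2% above 0 among the 15809 genes with a symbol, and the median shared change was 0.17, against 0.03 for those genes. The median was 0.19 in the knockout and 0.27 in wild type. An unadjusted p under 0.05 was reached by 3 members, all higher (2% of genes with a symbol were higher at that level), Fdft1 and Mvd among them. The same sign in both genotypes was found for 11 members (45.8%), all 11 above 0, against 34.9% of genes with a symbol for either sign. Fdft1, squalene synthase, read 1.72, 0.91 and 1.92 in knockout IIAEK against 1.33, 1.09 and 1.05 in knockout vehicle, and 1.21, 1.13 and 1.54 in wild-type IIAEK against 0.92, 0.81 and 0.57 in wild-type vehicle. It overlapped in the knockout and not in wild type, with a shared change of 0.44 ± 0.17. Mvd, which makes isopentenyl diphosphate from mevalonate, had 0.61 ± 0.26 (knockout 0.26, wild type 0.96). The largest disagreement was Msmo1, a sterol C4-demethylase, with 0.32 in the knockout and -1.04 in wild type. Within slides the list's median was 0.10 and 0.44 in the knockout and 0.04 and 0.43 in wild type, slide 1 before slide 2. Without the 2 arrays high in pancreas genes the list's median shared change was 0.0970, Fdft1 had 0.36 and Mvd 0.33. Without knockout IIAEK replicate 1 the median was 0.0982.

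**Figure D3:**
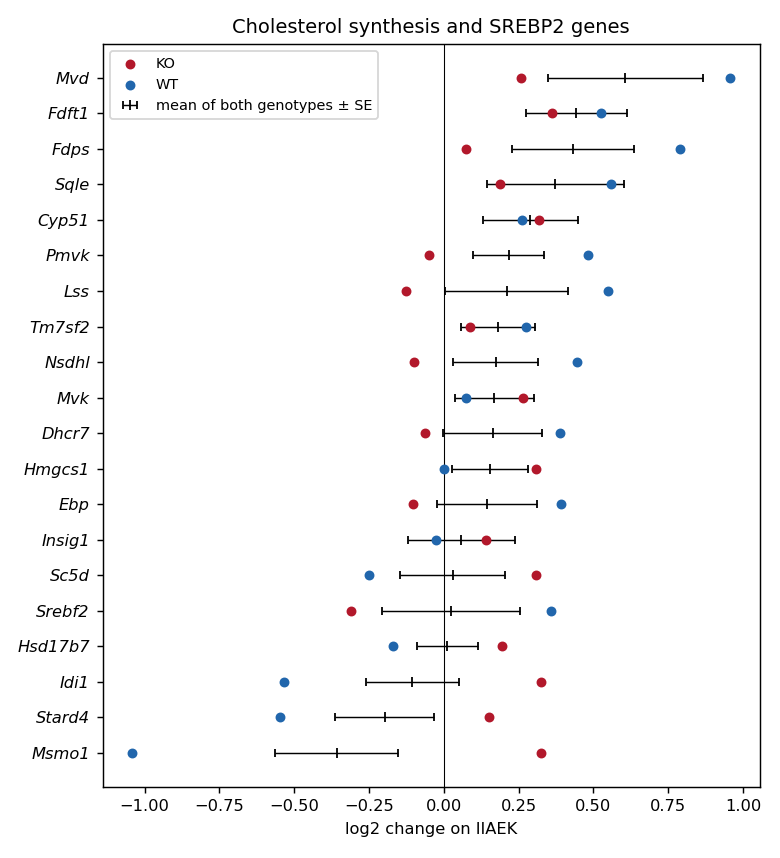
Log2 change on IIAEK for 20 genes of cholesterol synthesis and SREBP2, ordered by the shared change; red points are the knockout, blue points wild type, and black ticks with bars are the mean of both ± limma SE. The mean lies above 0 for 17 of the 20 genes drawn, and the genotypes part widely at Msmo1 and Idi1.

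Promoters of this group share a sequence feature that the values did not use. Of the 24 members, 16 had an entry among RefSeq promoters of build GRCm38.p6, and Fdft1 was not among them. In the 250 bases before the start, the CCAAT box (letters CCAAT, either strand), which binds the factor NF-Y known to work beside SREBP2, occurred in 16 of 16 members and in 37.5% of 27025 genes. The sterol regulatory element, searched as TCACNCCAC on both strands, occurred in 1 of 16 (6.25%), Hmgcs1, and in 1.22% of all genes. The E-box CACGTG occurred in 4 of 16 members (25%) and in 6.86% of all genes. It was about as frequent in the other lists searched, with 4 of 19 immediate early genes (21.1%) and 3 of 15 clock genes (20%). The CCAAT box occurred in 7 of those 19 (36.8%) and 9 of those 15 (60%). A match is a description of letters, not a site. The stretches below run 5′ to 3′ on the strand of the gene and were chosen to show Mvd as a member with a higher shared level, Cyp51 (0.29) as one alike in both genotypes, Msmo1 as the member in which the genotypes part, and Hmgcs1 (0.155) for its sterol element; capitals mark the motif.
Mvd, chr8:122443423-122443479, minus strand, CCAAT box starting 27 bases before the start: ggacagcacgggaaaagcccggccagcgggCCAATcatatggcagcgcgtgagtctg
Cyp51, chr5:4104698-4104756, minus strand, CCAAT box starting 29 bases before the start: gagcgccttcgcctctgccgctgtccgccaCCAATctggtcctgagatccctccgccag
Msmo1, chr8:64733599-64733663, minus strand, CCAAT box starting 55 bases before the start: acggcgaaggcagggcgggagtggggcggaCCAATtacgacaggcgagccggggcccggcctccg
Hmgcs1, chr13:119690184-119690252, plus strand, sterol regulatory element: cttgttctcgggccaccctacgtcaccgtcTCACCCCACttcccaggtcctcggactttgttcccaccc
Msmo1 and Mvd had wild-type changes of -1.04 and 0.96. All 16 members with a promoter entry carry the box, and whether it bears on the change was not tested.

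Genes of sterol absorption and efflux had small shared changes over both slides, and their median changed sides of 0 between the slides. Within slides it was 0.15 and 0.14 on slide 1 and -0.46 and -0.16 on slide 2, knockout before wild type. Of 17 members, 7 lay above and 10 below 0, and 9 had the same sign in both genotypes, against 34.9% of genes with a symbol. The median was -0.08 (knockout -0.0395, wild type -0.0680), with 0.0160 without the 2 arrays high in pancreas genes and -0.12 to -0.0260 without 1 array (wild-type IIAEK replicates 1 and 3). Npc1l1 had a shared change of 0.08 ± 0.19 (knockout 0.22, wild type -0.07), Abcg5 -0.07 ± 0.15 (-0.06 and -0.08) and Abcg8 0.09 ± 0.22 (-0.13 and 0.31). Abca1, which exports cholesterol to apolipoprotein A-I, had -0.31 by its brightest probe, made up of 0.08 in the knockout and -0.71 in wild type. Its other probe, above background on all 12 arrays, had -0.62, made up of -0.48 in the knockout and -0.75 in wild type. Scarb1, a receptor for high-density lipoprotein, had 0.31, made up of -0.43 and 1.05 in the same order. Soat2, which esterifies cholesterol, and Mttp and Apob, which build chylomicrons, had 0.23, 0.15 and -0.10. Mylip, a ubiquitin ligase induced by sterols, had -0.23, and Osbpl1a, of the oxysterol-binding protein family, had -0.56 by its brightest probe and -0.57 to 0.33 by 3 others. The chylomicron and apolipoprotein list of 18 genes had a median of -0.09, with 0.09 in the knockout and -0.23 in wild type, and 0.0340 for the shared change without those 2 arrays. Without them Soat2 had 0.0568, Osbpl1a -0.0970 and Apob -0.0112. In the fatty acid synthesis list 11 of 14 members lay above 0, against 57.2% of genes with a symbol. The list's median was 0.16, of which the knockout showed 0.01, and 0.0025 without knockout IIAEK replicate 1. Within slides the median was 0.04 and -0.08 on slide 1 and -0.13 and 0.61 on slide 2, knockout before wild type. Fads2, a fatty acid desaturase, had 0.45 and Me1, malic enzyme, -0.40, against 0.20 and -0.14 without the 2 arrays.

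Immediate early genes, which respond to stimuli and handling within minutes, leaned lower. Of 23 members 17 lay below 0, against 42.8% of genes with a symbol. Below 0 in both genotypes were 15, against 2327 of the 15809 genes with a symbol. The median was -0.16, with -0.12 in the knockout and -0.13 in wild type. There were 5 members lower at an unadjusted p under 0.05 (1.22% of genes with a symbol), Nr4a1, Egr1, Fos, Fosb and Klf2, the last being outside the rule for named genes and given to complete the count. Nr4a1, an orphan nuclear receptor, read -0.60, -0.57 and -1.0 in knockout IIAEK against 0.12, -0.05 and 0.88 in knockout vehicle, without overlap. In wild type it read -0.40, -0.62 and -0.0021 on IIAEK against 0.13, -0.03 and -0.43 on vehicle, with overlap. Fos, a subunit of the factor AP-1, read 3.15, 3.72 and 2.25 in knockout IIAEK against 4.0, 2.97 and 3.89 in knockout vehicle, with overlap. In wild type it read 3.70, 3.23 and 3.42 on IIAEK against 4.39, 4.24 and 3.88 on vehicle, without overlap. Shared changes were -0.64 ± 0.18 for Nr4a1, -0.65 ± 0.25 for Fos, -0.58 ± 0.22 for Egr1 and -0.93 ± 0.40 for Fosb. The list's median was near 0 in the knockout on slide 1 and -0.46 there on slide 2, and -0.19 and -0.09 in wild type. Without the 2 arrays high in pancreas genes the median over both genotypes was -0.18, and without knockout vehicle replicate 1 it was -0.0970. The time between death and sampling is not given in the sources used here, and its part was not tested.

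Sugar handling lay below 0 throughout its list. All 10 tested genes of disaccharidases and sugar transport had a shared change below 0, against 42.8% of genes with a symbol. Their median was -0.15, with a range of -0.43 to -0.04. Below 0 in both genotypes were 7, against 2327 of the 15809 genes with a symbol. Slc2a7, a hexose transporter, read 0.41, 0.14 and -0.62 in knockout IIAEK against 0.32, 0.52 and 0.20 in knockout vehicle, and 0.13, -0.27 and -0.35 in wild-type IIAEK against 0.14, 0.43 and 0.40 in wild-type vehicle. Its wild-type groups met without overlapping, its knockout groups overlapped, and the shared change was -0.43 ± 0.17. Slc2a2, the GLUT2 transporter, had -0.31 ± 0.14 (knockout -0.32, wild type -0.29), and Slc5a1, the sodium-glucose cotransporter, -0.22, of which the knockout gave -0.01. The list's median on slide 1 was 0.13 in the knockout and -0.05 in wild type, and on slide 2 -0.61 and -0.44. Slc5a1 had -0.14 without the 2 arrays high in pancreas genes.

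Bile acid genes lay lower mainly on slide 2. The list of 8 had a median of -0.17. Of the 8, 5 lay below 0, against 42.8% of genes with a symbol. At an unadjusted p under 0.05, 2 were lower (1.22% of genes with a symbol). These were Slc51b, one chain of the heteromer that passes bile acids to the blood, and Abcc2, an apical exporter of conjugates. Slc51b had -0.40 (knockout 0.04, wild type -0.84), and Abcc2 -0.44, or -0.22 without the 2 arrays high in pancreas genes. Leaving out wild-type vehicle replicate 2 gave this list a median of -0.0637, and leaving out knockout IIAEK replicate 1 gave -0.28. Fabp6, the ileal bile acid binding protein, had -1.26 from 2 high vehicle arrays, knockout replicate 3 at -0.70 and wild-type replicate 2 at -0.94, against -4.46 to -2.93 on the other 10. Slc51a, the partner of Slc51b, had -0.29. Brush border peptidases did not move together: the median of 16 was 0.34 in the knockout and -0.62 in wild type, and only 4 had the same sign; Enpep, an aminopeptidase, had 0.60 and -1.24 in the same order. Slc15a1, the transporter that takes up short peptides, had -0.20 ± 0.43, made up of 0.43 in the knockout and -0.84 in wild type. Alkaline phosphatase genes also parted. Alppl2, a relative of Akp3 in the same enzyme family, had -0.55 in the knockout and 1.17 in wild type, and Alpi -0.28 and 0.56; Alpl, the tissue-nonspecific form, had 0.14 and 0.57.

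Stress genes were led by Chac1, a glutathione-degrading enzyme induced by the factor Atf4. It read -1.55, -1.52 and -0.14 in knockout IIAEK against -1.98, -2.65 and -3.64 in knockout vehicle, without overlap. In wild type it read -2.64, -2.31 and -2.10 on IIAEK against -2.24, -3.23 and -2.75 on vehicle, with overlap. The shared change was 1.04 ± 0.32 (knockout 1.69, wild type 0.39), and Atf4 itself had 0.25 (0.38 and 0.11 in the same order). In the list of 26 heat shock and unfolded protein genes 20 lay above 0, with a median of 0.10, and the chaperones Hsp90ab1 and Hspb1 had 0.31 and 0.33, both below 0 in the knockout (-0.16 and -0.15). Of the 26, 11 (42.3%) had the same sign in both genotypes, against 34.9% of genes with a symbol, and 57.2% of those genes lay above 0. Without the 2 arrays high in pancreas genes the median of this list was -0.0179, on the other side of 0, and Chac1, Hsp90ab1 and Hspb1 had 0.75, 0.15 and 0.17; without knockout IIAEK replicate 1 the median was 0.0234. Slide medians with all arrays were 0.12 and 0.05 in the knockout and 0.10 and 0.04 in wild type. Tight junction genes lay above 0 for 16 of 18 members, with a median of 0.09, and 9 (50%) had the same sign in both genotypes. Among genes with a symbol 57.2% lay above 0 and 34.9% had the same sign. Their 4 slide medians ran from 0.05 to 0.12, and the median was 0.0975 without the 2 arrays high in pancreas genes, 0.0570 without knockout vehicle replicate 3 and 0.17 without knockout vehicle replicate 1; Cldn12 and Cldn23, claudins, had 0.22 and 0.26, Tjp3, a scaffold protein, 0.39, and Cldn2, a pore-forming claudin, 0.35. Tjp3 and Cldn2 had 0.20 each without the 2 arrays. No tight junction gene reached an unadjusted p under 0.05, and no interferon-stimulated gene did.

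Interferon-stimulated genes lay above 0 for 29 of 31 members, against 57.2% of genes with a symbol. Of these, 20 were above 0 in both genotypes, against 3197 of the 15809 genes with a symbol, and the list's median was 0.19. On slide 1 their median was near 0 in the knockout and -0.22 in wild type, and on slide 2 it was 0.45 and 0.39. Without the 2 arrays high in pancreas genes the median of the list was -0.0694, on the other side of 0, and without knockout vehicle replicate 3 alone it was -0.0394. Zbp1, a sensor of nucleic acids, and Oasl1 had 0.45 and 0.36, against -0.0739 and 0.11 without the 2 arrays. Proliferation genes lay above 0 for 27 of 28, with a median of 0.25, of which the knockout showed 0.09, and 0.0674 without the same 2 arrays; Mcm3 and Mcm2, of the replicative helicase, had 0.45 and 0.36, against 0.22 and 0.21 without them. Clock genes lay on both sides of 0: Arntl, which encodes the activator BMAL1, and Nfil3, a repressor of output genes, had 0.90 and 0.91, whereas Hlf, an output factor, and Nr1d2, a repressor of Arntl, had -0.80 and -0.52. The median of the 18 clock genes was -0.32, and the within-slide values were 0.16 and 0.05 on slide 1 against -0.89 and -0.38 on slide 2, knockout before wild type. The median was -0.11 without the 2 arrays high in pancreas genes and -0.0593 without knockout vehicle replicate 3 alone, and Arntl, Hlf and Nr1d2 had 0.56, -0.52 and -0.34 without the 2 arrays. The time of day of sampling is not given in the sources used here, and its part was not tested.

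Markers of other cell types differed by slide much as several of these lists did. All 15 smooth muscle markers had a shared change above 0, against 57.2% of genes with a symbol, with a median of 0.46. Of the 15, 9 were higher at an unadjusted p under 0.05 (2% of genes with a symbol). The knockout median was 0.03 and the wild-type median 0.85. Cnn1, calponin of smooth muscle, read 4.61, 4.22 and 4.82 in knockout IIAEK against 4.57, 4.17 and 3.84 in knockout vehicle. It read 4.24, 4.72 and 5.07 in wild-type IIAEK against 4.22, 3.39 and 3.88 in wild-type vehicle. The knockout overlapped and wild type did not, and the shared change was 0.60 ± 0.20; Tpm2, Des and Myl9 had 0.67, 0.58 and 0.47. The smooth muscle median was -0.19 and 0.04 on slide 1 but 0.52 and 1.26 on slide 2, knockout before wild type. It was 0.26 over both slides without the 2 arrays high in pancreas genes, with Tpm2 at 0.42 and Des at 0.37. The log2 of the summed linear level of the list ran from 7.46 to 8.07 in knockout IIAEK, 7.504 to 7.91 in knockout vehicle, 7.61 to 8.31 in wild-type IIAEK and 6.76 to 7.49 in wild-type vehicle. All 16 fibroblast markers were above 0, with a median of 0.28, Col1a1 at 0.79 and Col3a1 at 0.53. The same sign in both genotypes was found for 6 (37.5%), near the 34.9% of genes with a symbol. The fibroblast median was 0.01 in the knockout and 0.49 in wild type, and -0.0379 over slide 1. It was 0.13 without the 2 arrays, with Col1a1 at 0.34 and Col3a1 at 0.18.

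Erythrocyte genes lay lower in both genotypes, 5 of 6, against 2327 of the 15809 genes with a symbol. Their median was -0.98 (-0.84 in the knockout and -0.85 in wild type). It was -0.42 without the 2 arrays high in pancreas genes and -0.46 without knockout vehicle replicate 3 alone. Hbb-bt, a beta globin, had -1.21 (-0.56 without the 2 arrays) and Hba-a1, an alpha globin that shares sequence with Hba-a2, -1.01; the slide medians were 0.14 and -0.05 on slide 1 and -2.79 and -1.36 on slide 2. Their summed level ran from 5.16 to 5.86 in knockout IIAEK, 5.01 to 8.69 in knockout vehicle, 5.97 to 6.47 in wild-type IIAEK and 6.05 to 7.58 in wild-type vehicle. Of 8 mast cell genes 7 lay above 0, against 57.2% of genes with a symbol, and their median was 0.43. Cpa3, a granule protease, had 0.84 and Mcpt1 1.05. The mast cell median was 0.0763 without the 2 arrays, when Cpa3 had 0.50 and Mcpt1 -0.0660, and without knockout vehicle replicate 3 alone the median was 0.0922. B and plasma cell markers went opposite ways, with medians of -2.19 in the knockout and 0.80 in wild type, and Ms4a1, which encodes CD20, had -5.15 and 1.30. The part of blood, muscle and lymphoid tissue in the shared values was not tested.

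**Figure D4:**
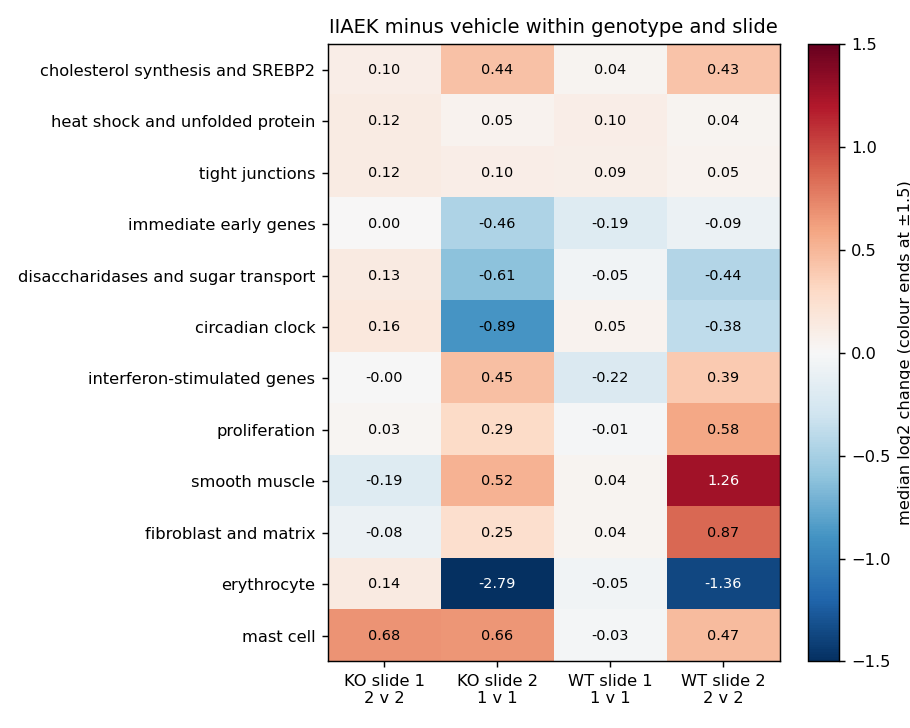
Median log2 change on IIAEK of 12 gene lists (rows) within each genotype and slide (columns; array numbers are IIAEK against vehicle), coloured from blue (lower) to red (higher). With all 12 arrays the tight junction, heat shock and cholesterol lists are above 0 in all 4 columns. The smooth muscle, clock and erythrocyte lists lie between -0.19 and 0.16 on slide 1 and are larger in size on slide 2.

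Over the 47 lists of pathways and cell types, the knockout and wild-type medians were on the same side of 0 for 25 lists, 15 above and 10 below, and on opposite sides for 22. Among lists whose 2 medians lay close together were immediate early genes (-0.12 and -0.13), of which 16 of 23 had the same sign, and heat shock (0.13 and 0.12), of which 11 of 26 did, knockout before wild type. The exocrine pancreas list lay widest apart, with -1.91 in the knockout and 2.45 in wild type.

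**Figure D5:**
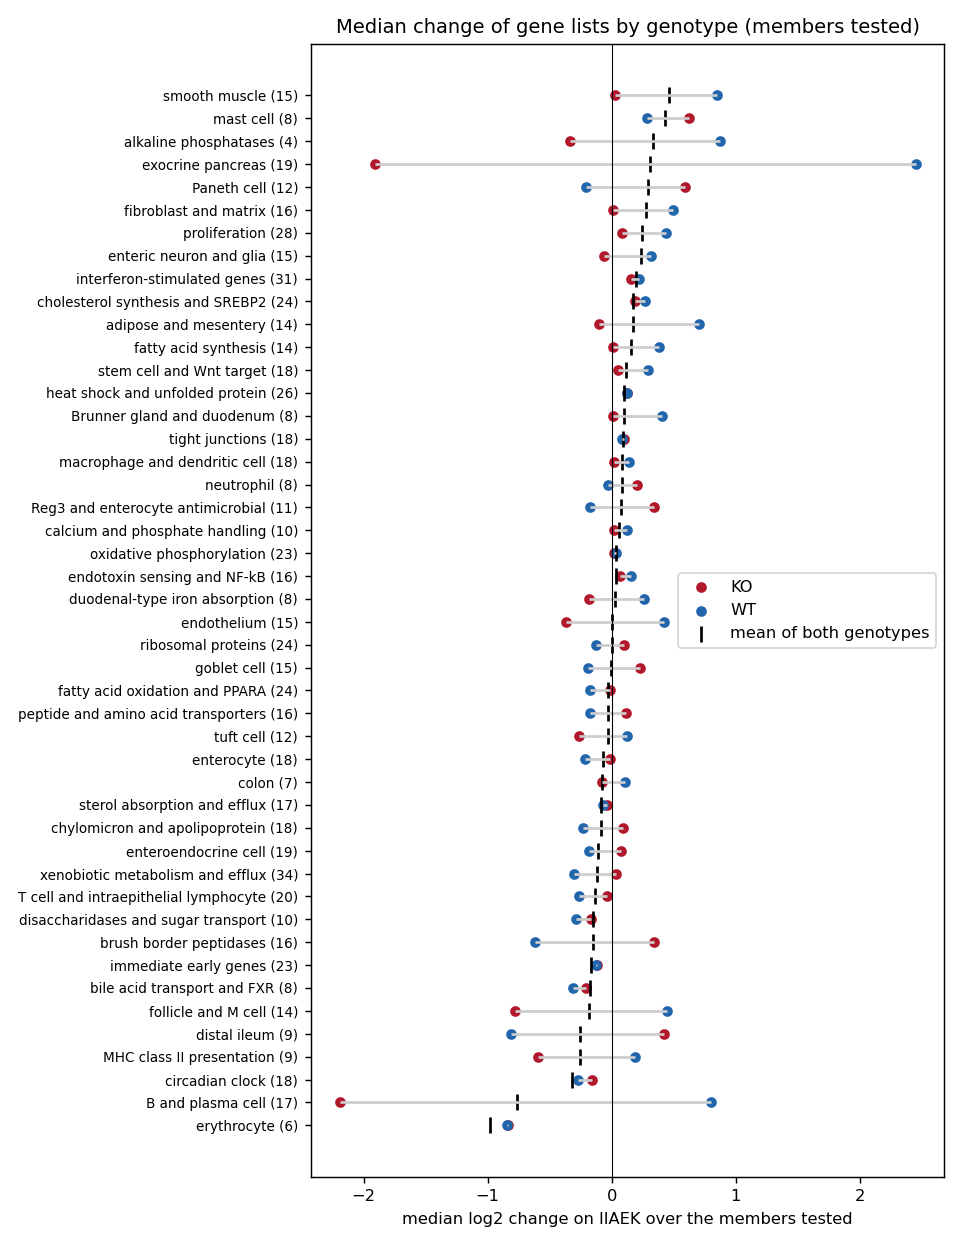
Median log2 change on IIAEK over the tested members of each list with at least 4, ordered by the shared change; red points are the knockout, blue points wild type and black ticks the median of the shared change. Exocrine pancreas, B and plasma cells and brush border peptidases have the genotypes far apart on both sides of 0.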

How the data were processed

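RNA of the jejunum was labelled with Cy3 and hybridised to 12 Agilent 1-colour arrays. Per the file headers, the authors read them with Feature Extraction 10.7.3.1, whose deposited processed signal is an intensity after background subtraction, not scaled between arrays. The deposited value table holds log2 values whose scale and centring are not stated; its columns correlated at 1 with the scaled log2 signal after centring by probe, and it was used only as an alternative. From the processed signal, log2 was taken, spots of a probe were averaged without flagged spots, and the 75th percentile was subtracted. RefSeq tables (GRCm38.p6) named 32982 of 56590 probes, with 22907 symbols; the brightest probe stood for a gene. A gene was tested if any group had its probe well above background on each of 3 arrays (27560 genes: 15809 with a symbol, 11751 unnamed probes).

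The 4 group means were fitted with limma 3.58.1 in R 4.3.3 (8 residual, 3.41 prior degrees of freedom), two-sided, with Benjamini-Hochberg adjustment over all genes and a threshold of 0.05; the script was tested on simulated data. The labels give 3 samples a group; whether each is 1 mouse is not stated beyond that, and the number of arrays limits the precision. "At least" folds set the bright group's mean against the detection limit of the dim group.

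Members, lists, tests and alternatives were chosen with earlier results of these data known. The rule named the 12 characterised genes of smallest shared p in each direction with the same sign in both genotypes, the 6 of smallest p in both genotypes in each direction, alkaline phosphatase and sterol genes, and up to 4 members of smallest p of described lists. Replicate numbers were not used as pairs in the main fit. Deviations of same-numbered IIAEK and vehicle arrays correlated at 0.09 to 0.35 in the knockout and -0.25 to 0.02 in wild type. Same-numbered IIAEK and vehicle arrays of a genotype shared a slide, and whether they are otherwise matched is not stated. Settings tried are in the closing section. A few genes that the rule names are not reported here, though counts and medians of their lists include them.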

Additional observations from a re-analysis of the deposited data

Results flagged for a closer look

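For 2 results every IIAEK array lay on one side of its vehicle arrays in the knockout and on the other side in wild type; 488 genes (1.77% of all tested) show that pattern. The centred mean of 12 tuft cell markers lay between -0.32 and 0.09 in knockout IIAEK, below 0.11 to 0.30 in knockout vehicle, and between -0.05 and 0.11 in wild-type IIAEK, above -0.27 to -0.06 in wild-type vehicle. The knockout change minus the wild-type change of that mean was -0.50, and this difference was not tested. Alppl2 had a knockout change minus wild-type change of -1.73, with an unadjusted limma p of 0.00206 and an adjusted p of 0.303, which misses the threshold. Neither result is part of a change shared by both genotypes.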

How the results depend on the processing

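The limma count for a change in both genotypes was 0 in every fit that estimates each genotype (the additive and within-slide fits do not), and the mean change had 0 genes at an adjusted p under 0.05 except when 1 array was left out, with 0 to 1 higher (A_52_P317617, without knockout vehicle replicate 3) and 0 to 1 lower (Pramel34 at -1.90, adjusted p = 0.0244, without wild-type IIAEK replicate 1). Genes at an unadjusted p under 0.05 for the mean change numbered 2651 within slide 2 and 504 without the 2 arrays high in pancreas genes, and 516 (without wild-type vehicle replicate 2) to 1811 (without knockout vehicle replicate 1) when leaving out each array. The 21 genes of the same sign became 12 with normexp, 41 with no filter, 13 when detection on all 12 arrays was asked, 33 with slide as a block, 32 with the replicate block and 6 with pancreas and B cell scores as covariates, and 15 to 61 without 1 array; genes of opposite sign became 108 without the 2 arrays and 124 with the covariates, and 90 to 1008 without 1 array. The interaction had 1 gene (Dusp9) at an adjusted p under 0.05 with slide as a block and 0 without any 1 array; at an unadjusted p it had 2374 without the 2 arrays, 1026 with the covariates, and 2273 to 6725 without 1 array. The same-sign share was 50.58% and r was -0.141 with no filter, and 29.01% to 46.59% and -0.4543 to -0.1032 without 1 array. The causes were not tested.

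Of 91 named genes, each followed by its brightest probe, 64 kept their direction throughout. Many were chosen by their p on these same arrays, a choice that favours a kept direction. Within slide 1 the mean change turned for Akp3 (-0.33), Alppl2 (-0.21), Abcg5 (0.14), Abca1 (0.10), Scarb1 (-0.28), Apob (0.0033), Slc15a1 (0.36), Slc5a1 (0.0624), Nfil3 (-0.21), Arntl (-0.12), Nr1d2 (0.22), Des (-0.11), Zbp1 (-0.0795), Ifi44 (-0.32), Hspb1 (-0.0068), Slc51b (0.0124), Abcc2 (0.11), Slc51a (0.13), Me1 (0.0281), Scd2 (-0.0613), Osbpl1a (0.31), Col1a1 (-0.0473) and Col3a1 (-0.0552). Within slide 2 it turned for Npc1l1 (-0.15), Abcg8 (-0.14) and Cndp2 (-0.13). Without the 2 arrays it turned for Abcg5 (0.0446), Slc15a1 (0.0376), Zbp1 (-0.0739), Ifi44 (-0.14) and Mcpt1 (-0.0660), and with the covariates for Npc1l1 (-0.0114) and Abcg8 (-0.0290). Without 1 array the ranges crossed 0 for Npc1l1 (-0.0587 to 0.214), Abcg5 (-0.137 to 0.0272), Abcg8 (-0.022 to 0.239), Slc15a1 (-0.515 to 0.0599), Ifi44 (-0.0188 to 0.660) and Mcpt1 (-0.0922 to 1.944). The all-array mean changes of Akp3, Ifi44, Scd2 and Cndp2, not given above, were 0.96, 0.43, 0.48 and 0.40. Akp3, the deleted gene, was well above background on no knockout array, so the knockout part of its mean change is not a measured level. Dim genes near background are the least precise.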

Other observations

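The gene with the smallest p for a shared change was the unnamed probe A_52_P317617, chosen here after its values were seen and outside the rule for named genes. It read -2.82, -4.16 and -4.27 in knockout IIAEK against -7.48, -6.99 and -4.85 in knockout vehicle. It read -1.72, -1.5 and -1.04 in wild-type IIAEK against -4.62, -3.63 and -4.70 in wild-type vehicle. IIAEK arrays lay above vehicle arrays within each genotype, and the change was 2.90 in wild type. All 3 knockout vehicle arrays were below background, which bounds the knockout level on IIAEK at least 2-fold higher, so the unadjusted limma p of 3.80e-05 (adjusted p = 0.962) rests in part on values that are not measured levels.

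Of the 21 genes with an unadjusted p under 0.05 and the same sign in both genotypes, 10 have a symbol, 1 higher and 9 lower, and 11 are unnamed probes, 5 higher and 6 lower.

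Of 12 Paneth cell markers, known for antimicrobial peptides, 10 lay above 0, against 57.2% of genes with a symbol. Their median was 0.29, with 0.59 in the knockout and -0.21 in wild type. It was 0.145 without the 2 arrays high in pancreas genes and 0.148 without knockout IIAEK replicate 3. T cell and intraepithelial lymphocyte markers lay below 0 for 19 of 20, against 42.8% of genes with a symbol. The same sign in both genotypes was found for 5 (25%), against 34.9% of genes with a symbol. The median was -0.13, with -0.04 in the knockout and -0.27 in wild type. For the shared change it was -0.0683 without wild-type vehicle replicate 2. Within slides the list's median was 0.06 and 0.165 on slide 1 and -0.41 and -0.33 on slide 2, knockout before wild type. Xenobiotic metabolism genes lay below 0 for 29 of 34, and 14 (41.2%) had the same sign in both genotypes. The median was -0.12, with 0.04 in the knockout and -0.30 in wild type. For the shared change it was 0.00016 without the 2 arrays high in pancreas genes. Within slides it was 0.17 and 0.12 on slide 1 and -0.23 and -0.55 on slide 2, in the same order. Ribosomal proteins and oxidative phosphorylation genes had medians of -0.0011 and 0.03.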
